A study of Rattus norvegicus with 4 samples.

Results

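The synaptic vesicle release machinery was followed as 66 of the 32883 genes measured, chosen by gene symbol with earlier results of these data known. These were the synaptotagmins, syntaxins, VAMPs, SNAPs, complexins, RIMs, UNC13 proteins, syntaxin-binding proteins, SV2 glycoproteins and synapsins. They were measured in nuclei of the ventral tegmental area (VTA), the midbrain region that holds dopamine neurons beside GABA neurons, glutamate neurons and glia. The animals were experimentally naive Sprague-Dawley rats aged 90 to 120 days, with no transgene or other agent. There were 4 libraries of sorted nuclei, 2 from females and 2 from males, and each pooled the VTA of 3 rats of one sex. The library was therefore the replicate (n = 4), and single animals could not be separated within it. Classes of nuclei were compared in a fit over all classes that set aside shifts shared by a whole library. Its p-values rest on the remaining spread, pooled over all classes, so they need not match the spread of the libraries in the classes named. The p-values for sex rest on the spread between pooled libraries within a class.

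Neurotransmitter is released when a vesicle fuses with the plasma membrane, which is driven by a bundle of SNARE proteins: a VAMP on the vesicle, and a syntaxin with SNAP-25 on the plasma membrane. UNC13 proteins prime docked vesicles, RIM proteins hold them near calcium channels at the active zone, complexins clamp and assist the SNARE bundle, and synaptotagmins sense the calcium that triggers fusion. SV2 glycoproteins and synapsins belong to the vesicle itself, and most of these proteins come in several isoforms from separate genes, so a neuron type can be described by which isoform it uses. Dopamine neurons release from axons and also from their somata and dendrites.

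Nuclei were placed in classes by UMI counts of a few genes, where a UMI is 1 counted RNA molecule. Dopamine nuclei had at least 2 UMIs each of Th and Slc6a3, the Slc26a7-Gad2 nuclei at least 2 of Slc26a7 and at least 1 of Gad2, GABA nuclei at least 2 of Gad1, and glutamate nuclei at least 2 of Slc17a6 and none of Gad1. A nucleus meeting more than 1 gate (74 nuclei) went to the first in that order. The classes held 323 dopamine nuclei, 97 Slc26a7-Gad2 nuclei (12 to 33 per library, 12 in male 1), 1166 GABA nuclei and 1579 glutamate nuclei. Glial nuclei, named from marker lists, were 8993 oligodendrocytes, 2156 astrocytes, 1150 oligodendrocyte precursors and 974 microglia. Of 20620 nuclei kept, 4182 were in no class.

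The libraries held 19714338 to 25824289 UMIs, with medians of 2381 to 3861 UMIs per kept nucleus. Median UMIs were 9114 in dopamine, 8208 in Slc26a7-Gad2, 7488 in GABA and 8259 in glutamate nuclei, but 2256 in oligodendrocytes and 1296 in microglia. Pairs of libraries shared 4 to 9 barcodes. The dopamine genes Ddc and Slc18a2, which no gate used, stood at 1538 and 400 CPM (UMI counts scaled to a common total of UMIs) in dopamine nuclei, at 730 and 65.9 CPM in Slc26a7-Gad2 nuclei and under 71 CPM in the other neuron classes. Slc26a7-Gad2 nuclei also held the GABA transporter gene Slc32a1 (255 CPM, as in GABA nuclei). The summed oligodendrocyte list was 466 CPM in dopamine nuclei (248 to 682 across libraries) and 357 to 377 CPM in the other neurons, against 28580 CPM in oligodendrocytes. In another setting, neuron nuclei that held glial UMIs, at least 3 from at least 2 genes of a glial marker list, were left out. Nuclei with fewer glial UMIs stayed in. Dopamine nuclei then kept 28 of 33 called genes against GABA nuclei, 29 of 31 against glutamate and 21 of 23 against Slc26a7-Gad2 nuclei. Slc26a7-Gad2 nuclei kept 15 of 18 against GABA and 9 of 12 against glutamate nuclei. That setting left 9 Slc26a7-Gad2 nuclei in male 1, under the minimum of 10 for a sum, so the male 1 sum was also left out.

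Of the 66 genes, 58 passed the filter on low counts. The others were Cplx3, Cplx4, Stx11, Stxbp2, Syt15, Vamp5, Vamp8 and Syt8, which had no UMI in any library, and Sv2b and Snap23 were not analysed here. The 66 genes together took 1.73% ± 0.0513 (SD, n = 4) of the UMIs of dopamine nuclei, 1.37% ± 0.0198 in GABA, 1.30% ± 0.0391 in glutamate and 1.26% ± 0.0785 in Slc26a7-Gad2 nuclei. The dopamine values, 1.68% to 1.78%, lay above every other class. Among glia the share was 0.667% ± 0.0167 in precursors and lower in oligodendrocytes (0.389%), astrocytes (0.331%) and microglia (0.242%). Snap91, the endocytic clathrin adaptor AP180, matched the symbol rule without being a SNARE. Sums are relative to all UMIs of a class, so fewer expressing nuclei and less RNA per nucleus cannot be told apart in them.

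**Figure D1:**
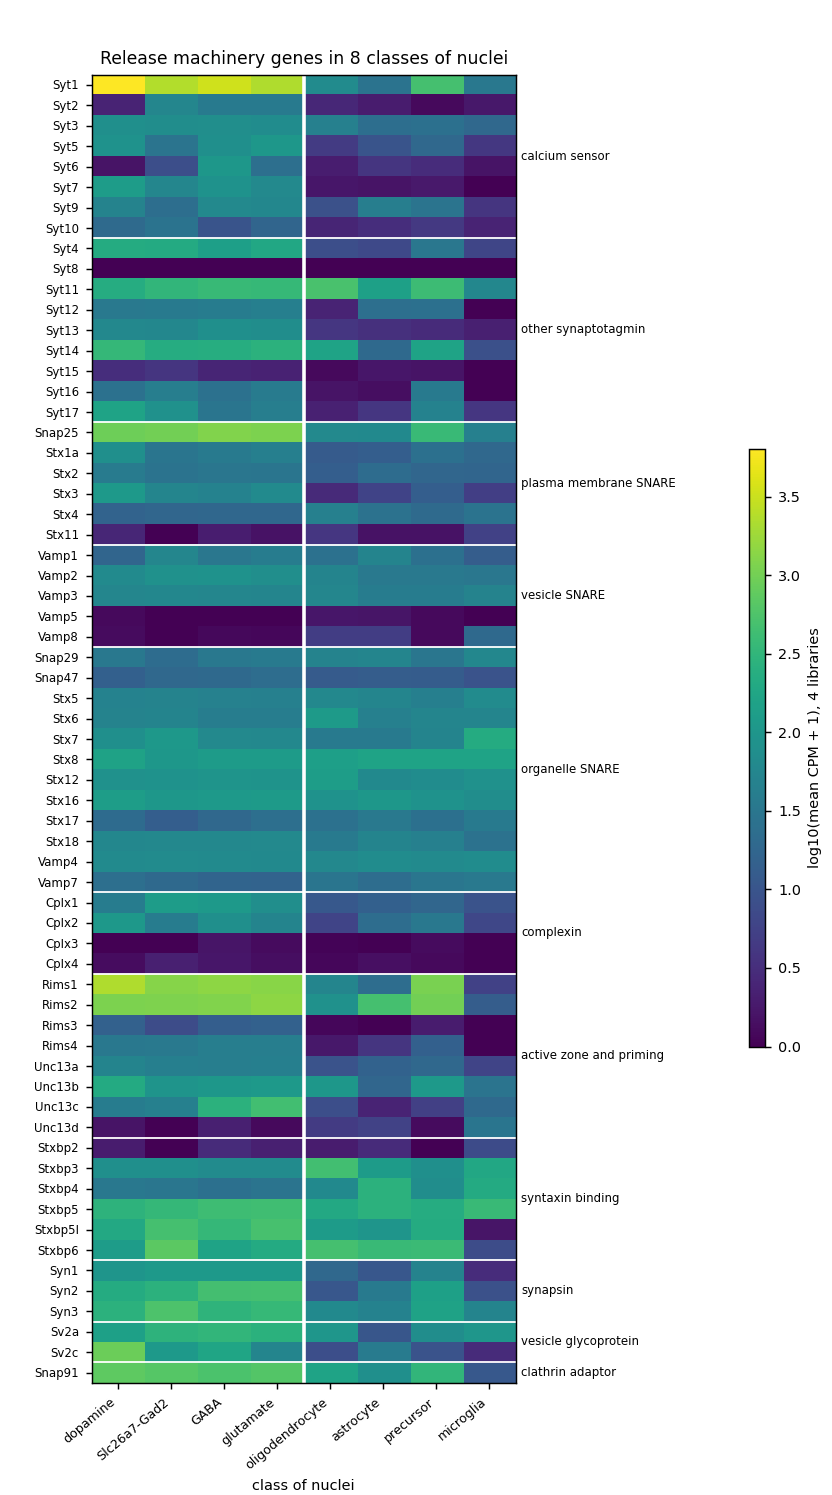
Mean level of 64 of the 66 genes in the 8 classes of nuclei, grouped by role; colour is log10 of the mean CPM over the 4 libraries plus 1. Most rows are brighter (higher) in the 4 neuron columns than in the glial columns, and most exceptions sit among the organelle SNAREs and syntaxin-binding proteins. A plasma membrane SNARE and an active zone and priming gene were also called lower in neurons.

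The first question was which release genes set dopamine nuclei apart from the other neurons. Dopamine nuclei had more Sv2c, Syt17, Syt1, Stx3, Stx1a, Unc13b and Cplx2 RNA, and less Sv2a, Cplx1, Syt2, Syt6, Vamp1 and Unc13c RNA, than GABA and glutamate nuclei. In the comparison with GABA nuclei 33 of 58 genes were called by edgeR's quasi-likelihood test at a Benjamini-Hochberg adjusted p under 0.05, 19 higher and 14 lower, where 29.6% of all 11887 genes tested were called (14.0% higher and 15.6% lower). Against glutamate nuclei 31 of 58 were called, 15 higher and 16 lower (25.0% of all genes, 11.8% higher and 13.3% lower), and against Slc26a7-Gad2 nuclei 23, 14 higher and 9 lower (14.4% of all genes, 8.75% higher and 5.68% lower). The median log2 fold change of the 58 genes was 0.07, 0.01 and 0.08 in these comparisons, beside -0.02, -0.03 and 0.09 for all genes. The 3 comparisons share the dopamine sums and are not independent of each other.

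The genes called the same way in all 3 comparisons are listed here whether or not the naming rule reached them, so some were named after their values were seen. Higher in dopamine nuclei each time were 12 genes: Sv2c, Syt1, Syt7, Syt14, Syt17, Stx1a, Stx3, Stx8, Cplx2, Rims1, Unc13b and Snap91. Lower each time were 7: Sv2a, Cplx1, Syt2, Syt6, Syt11, Vamp1 and Stxbp5l. Against Slc26a7-Gad2 nuclei the calls of Syt11 and Snap91 were lost without nuclei holding glial UMIs (adjusted p = 0.0523 and 0.0872) and without nuclei meeting more than 1 gate (0.337 and 0.373). Both of these fits also lacked the male 1 sum of Slc26a7-Gad2 nuclei. Leaving out those multi-gate nuclei also ended the calls of Stx3 (0.247), Stx8 (0.0764), Vamp1 (0.0637) and Syt6 (0.0606) there. Called in none of the 3 were 19 genes, among them the priming factor Unc13a and the synapsin Syn1. Syn1 was at 102, 89.3, 113 and 80.6 CPM in the dopamine sums of female 1, female 2, male 1 and male 2, the order used for every set of 4 values below, and at 124, 86.8, 121 and 106 CPM in GABA sums. Its log2 fold changes were -0.11 ± 0.11 (SE) against GABA, -0.20 ± 0.10 against glutamate and -0.11 ± 0.17 against Slc26a7-Gad2 nuclei, and the dopamine and GABA libraries overlapped.

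**Figure D2:**
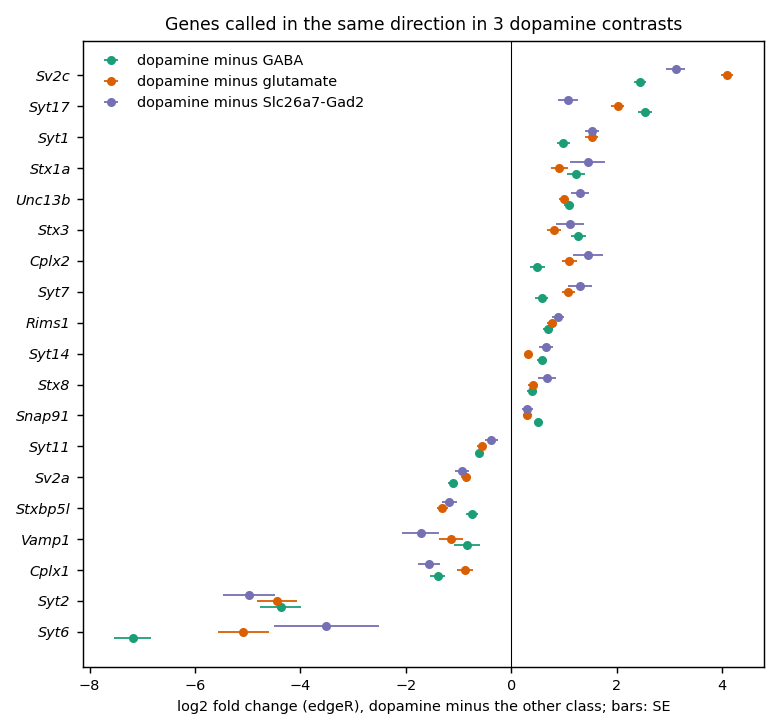
Log2 fold change, with its standard error, of the 19 genes called in the same direction when dopamine sums were compared with GABA, glutamate and Slc26a7-Gad2 sums. Sv2c lies farthest to the higher side against glutamate and Slc26a7-Gad2 sums, and Syt6 and Syt2, which rest on 2 and 5 UMIs in dopamine sums, farthest to the lower side.

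The SV2 glycoproteins gave an opposite pair. Sv2c, the isoform known from the basal ganglia and from dopamine neurons, was at 912, 985, 738 and 910 CPM in dopamine nuclei, 134, 170, 177 and 201 in GABA, 46.5, 65.2, 56.1 and 46.9 in glutamate and 96.1, 78.8, 145 and 124 in Slc26a7-Gad2 nuclei. Every dopamine library was above every library of the other classes. The log2 fold change was 2.44 ± 0.11 against GABA (adjusted p = 6.3e-24), 4.10 ± 0.12 against glutamate (9.67e-31) and 3.12 ± 0.18 against Slc26a7-Gad2 nuclei (2.48e-18). Sv2a, the isoform found in most neurons, went the other way, with 142, 130, 173 and 132 CPM in dopamine nuclei against 284 to 365 in GABA, 239 to 310 in glutamate and 246 to 345 in Slc26a7-Gad2 nuclei. Its log2 fold changes were -1.10 ± 0.09, -0.86 ± 0.09 and -0.93 ± 0.13.

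Per nucleus, with each nucleus thinned to 2000 UMIs, Sv2c was seen in 69.1% ± 6.03 (SD, n = 4) of dopamine nuclei, 22.0% of GABA, 15.7% of Slc26a7-Gad2 and 7.44% of glutamate nuclei. Unthinned shares were 86.6%, 43.6%, 37.6% and 19.97%. Oligodendrocytes, taken as the background from free RNA, had 1.25% thinned and 1.51% unthinned. Their gate allowed no UMI of Rbfox3 or of several neuron gate genes, so they may understate this background. Thinning left out no dopamine or Slc26a7-Gad2 nucleus, 7 GABA and 17 glutamate nuclei, and 3685 oligodendrocytes.

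The complexins also gave an opposite pair. Cplx2 was at 98.4, 123.3, 91.2 and 107 CPM in dopamine nuclei and Cplx1 at 31.0, 35.2, 47.7 and 41.5 CPM. In glutamate nuclei Cplx2 was at 39.5, 74.6, 41.9 and 50.4 CPM and Cplx1 at 71.5, 89.6, 73.8 and 67.3 CPM, and no library of either gene overlapped the dopamine values. Cplx2 was higher in dopamine nuclei by 1.10 ± 0.14 against glutamate (adjusted p = 2.42e-08) and 1.46 ± 0.28 against Slc26a7-Gad2 nuclei (0.000133), where the libraries spread from 6.91 to 83.4 CPM. Against GABA nuclei (69.5 to 94.8 CPM) it was higher by 0.49 ± 0.14 (adjusted p = 0.00558), with libraries that overlapped, and the call was lost without male 2 (0.0627) and without the library term in the fit (0.0905). Cplx1 was lower in dopamine nuclei by log2 fold changes of -1.40 ± 0.14, -0.88 ± 0.14 and -1.56 ± 0.21 against GABA, glutamate and Slc26a7-Gad2 nuclei.

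The promoters of Sv2c, Cplx2, Cplx1 and Syn2 are shown because these genes differed in opposite directions, Sv2c and Cplx2 higher and Cplx1 and Syn2 (values below) lower in dopamine than in GABA and glutamate nuclei. They are the 250 bases before the RefSeq transcription start, 5′ to 3′ on the gene's strand, in build GRCr8, which is not the build of the count tables (rn6). Sv2c lies on the minus strand at chr2:29163169-29163418, Cplx2 on the minus strand at chr17:10236754-10237003, Cplx1 on the plus strand at chr14:1328823-1329072 and Syn2 on the plus strand at chr4:149858669-149858918. Capitals mark the GC box GGGCGG on either strand.
Sv2c promoter: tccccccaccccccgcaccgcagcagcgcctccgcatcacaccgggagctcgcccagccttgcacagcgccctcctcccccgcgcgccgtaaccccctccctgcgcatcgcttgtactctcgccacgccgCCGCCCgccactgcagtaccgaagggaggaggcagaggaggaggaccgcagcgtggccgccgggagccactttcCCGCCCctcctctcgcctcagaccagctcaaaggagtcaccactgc
Cplx2 promoter: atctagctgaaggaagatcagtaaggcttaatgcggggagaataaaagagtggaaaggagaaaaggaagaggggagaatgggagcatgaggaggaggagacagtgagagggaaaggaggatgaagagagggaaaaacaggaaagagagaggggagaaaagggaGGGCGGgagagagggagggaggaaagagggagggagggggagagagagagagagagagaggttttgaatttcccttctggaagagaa
Cplx1 promoter: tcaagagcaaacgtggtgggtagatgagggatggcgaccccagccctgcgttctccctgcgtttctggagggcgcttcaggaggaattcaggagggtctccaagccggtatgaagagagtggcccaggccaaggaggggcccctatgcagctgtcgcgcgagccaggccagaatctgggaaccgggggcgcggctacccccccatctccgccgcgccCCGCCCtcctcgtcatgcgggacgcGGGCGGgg
Syn2 promoter: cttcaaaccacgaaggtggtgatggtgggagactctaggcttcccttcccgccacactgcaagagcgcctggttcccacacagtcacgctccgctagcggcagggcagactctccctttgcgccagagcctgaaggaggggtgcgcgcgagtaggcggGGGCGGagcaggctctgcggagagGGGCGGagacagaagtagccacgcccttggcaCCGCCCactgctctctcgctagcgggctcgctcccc
GC boxes were found in all 4 windows, 2, 1, 2 and 3 in this order, and GC content was 72.0%, 50.8%, 68.0% and 66.8%. Of 66 genes 51 had a RefSeq promoter, in 64 windows, and 39 of these held a GC box, against 30.5% of 33469 windows of the same length. The NBRE letters AAAGGTCA, bound by Nr4a2-type receptors, occurred in 0 of the 64 windows and in 1.24% of all windows. The cyclic AMP response element TGACGTCA occurred in 2, those of Syn1 and Vamp1, and in 1.59% of all windows. Motifs were searched on both strands, and none of the 3 contains another.

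Among the calcium sensors, Syt1, the main fast sensor of synchronous release, was at 6419, 6535, 5698 and 6943 CPM in dopamine nuclei. It was at 3329, 3773, 2940 and 3375 CPM in GABA, 2579, 1851, 2282 and 2436 in glutamate and 1865, 2493, 2405 and 2622 in Slc26a7-Gad2 nuclei, so dopamine libraries were above all others. The log2 fold changes were 0.99 ± 0.12 (adjusted p = 3.42e-09), 1.53 ± 0.12 (1.71e-14) and 1.54 ± 0.13 (7.94e-13). Syt7, a slow sensor of high calcium affinity, was at 119, 135, 110 and 132 CPM and was higher by 1.08 ± 0.12 than in glutamate and by 1.31 ± 0.23 than in Slc26a7-Gad2 nuclei. Syt5 was at 95.8, 80.5, 88.0 and 81.8 CPM in dopamine against 43.7, 32.4, 20.7 and 15.1 CPM in Slc26a7-Gad2 nuclei, a log2 fold change of 1.72 ± 0.32 (adjusted p = 4.79e-05) with no overlap.

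Syt2, the other fast sensor, was almost missing from dopamine nuclei, with 5 UMIs in all (0, 1.26, 3.18 and 1.22 CPM). It was at 35.1, 30.1, 31.1 and 42.6 CPM in GABA, 43.5, 33.8, 32.6 and 32.8 in glutamate and 39.3, 55.6, 62.2 and 60.3 in Slc26a7-Gad2 nuclei. The ratio of CPM over the pooled libraries was 22.4 in GABA over dopamine nuclei (exact 95% interval 9.52 to 69.6, counting error only), 23.5 in glutamate (10.0 to 72.8) and 35.5 in Slc26a7-Gad2 nuclei (14.2 to 114). Syt6 had 2 UMIs in dopamine nuclei (1.35, 0, 1.06 and 0 CPM), 983 in GABA nuclei (92.7, 92.9, 105 and 119 CPM) and 336 in glutamate nuclei (23.4, 25.3, 19.3 and 27.2 CPM). Its ratio to dopamine nuclei was 167 in GABA (46.1 to 1382) and 38.7 in glutamate nuclei (10.6 to 321). Thinned to 2000 UMIs, Syt2 was seen in 0.375% of dopamine nuclei and 0.350% of oligodendrocytes, and Syt6 in 0.0862% and 0.201%. The dopamine shares were thus at or near those of oligodendrocytes. Syt2 was itself lower in precursors than in oligodendrocytes (log2 fold change -2.43, and -0.57 with doublets kept). Its share in oligodendrocytes therefore need not be background alone.

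Of the synaptotagmins outside the calcium sensors, Syt17, a double-C2 protein of the Golgi and synapse, was at 169, 152, 181 and 147 CPM in dopamine nuclei. GABA nuclei had 26.3, 30.1, 31.8 and 28.6 CPM and glutamate nuclei 34.7, 46.0, 36.1 and 49.6 CPM, with a wide gap to dopamine. The log2 fold changes were 2.53 ± 0.13 (adjusted p = 4.59e-21) and 2.02 ± 0.12 (6.25e-19). After thinning it was seen in 26.1% of dopamine nuclei, 5.28% of GABA nuclei and 0.237% of oligodendrocytes. By role, dopamine against GABA nuclei had 3 calcium sensors higher and 2 lower of 8, and 3 other synaptotagmins higher and 2 lower of 7, beside 14.0% of all genes higher and 15.6% lower.

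Among the plasma membrane SNAREs, Stx1a, the neuronal syntaxin, was at 87.7, 75.5, 68.9 and 80.6 CPM in dopamine nuclei, against 25.5, 33.5, 34.7 and 46.3 in GABA and 37.4, 45.1, 43.5 and 44.8 in glutamate nuclei. The libraries did not overlap, and the log2 fold changes were 1.23 ± 0.17 (adjusted p = 1.02e-07) and 0.91 ± 0.16. Stx3, a syntaxin of dendritic and specialised release sites, was at 99.8, 119, 129 and 100 CPM in dopamine and 40.1, 47.2, 57.3 and 49.0 CPM in GABA nuclei, 1.27 ± 0.15 higher (adjusted p = 1.11e-09). Snap25, the plasma membrane partner of syntaxin, was at 939, 908, 935 and 895 CPM in dopamine nuclei, -0.36 ± 0.08 against GABA (1136 to 1331 CPM, adjusted p = 0.000462) and -0.24 ± 0.08 against glutamate nuclei (1087 to 1176 CPM, 0.0214). The second Snap25 call was lost without female 1 (0.108), male 1 (0.0619) or male 2 (0.0642) and without the library term (0.106).

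Of the vesicle SNAREs, Vamp1 was at 16.2, 17.6, 17.0 and 15.9 CPM in dopamine nuclei, below the 24.0 to 35.6 of GABA, 29.7 to 47.0 of glutamate and 41.5 to 67.8 of Slc26a7-Gad2 nuclei. The log2 fold changes were -0.84 ± 0.25 (adjusted p = 0.0071), -1.15 ± 0.23 (0.000124) and -1.72 ± 0.35 (0.000308). The last was lost when nuclei meeting more than 1 gate were left out (0.0637), which also removed the male 1 sum of Slc26a7-Gad2 nuclei. Vamp2, the most used synaptic VAMP, was -0.35 ± 0.13 against GABA nuclei (adjusted p = 0.0372) with overlapping libraries (42.8 to 79.4 against 68.6 to 108 CPM), and without female 1, female 2 or male 1 adjusted p was 0.0782, 0.192 and 0.301. It was also lost under DESeq2 (0.0803), with size factors (0.0572) and without the library term (0.233), nuclei with glial UMIs (0.0639) or multi-gate nuclei (0.0707). Of the 12 SNAREs of other organelles, 5 were higher and none lower in dopamine than in GABA nuclei, and 3 were higher and 1 lower against glutamate nuclei, where 14.0% and 11.8% of all genes were called higher and 15.6% and 13.3% lower.

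The priming and active zone genes split by isoform. Unc13b (Munc13-2) was at 194, 218, 231 and 204 CPM in dopamine nuclei against 94.1 to 109 in GABA and 88.7 to 130 in glutamate nuclei, higher by 1.09 ± 0.10 (adjusted p = 1.09e-12) and 1.01 ± 0.10. Unc13c (Munc13-3) was at 25.6, 59.1, 37.1 and 30.5 CPM against 229, 306, 329 and 254 in GABA and 438, 383, 504 and 477 in glutamate nuclei, with no overlap. Its log2 fold changes were -2.82 ± 0.27 (3.09e-12) and -3.53 ± 0.25 (5.93e-16). Unc13a (Munc13-1), the main priming factor of most synapses, was at 47.2, 69.2, 42.4 and 42.8 CPM in dopamine and 35.6 to 46.5 CPM in GABA nuclei, 0.33 ± 0.15 and not called (adjusted p = 0.0989). Rims1, the RIM scaffold of the active zone, was at 2169, 2260, 2232 and 2374 CPM in dopamine nuclei and 1302 to 1484 CPM in GABA and glutamate nuclei, higher by 0.70 ± 0.10 and 0.78 ± 0.10. Rims2 was -0.04 ± 0.09 against GABA nuclei and not called, and -0.27 ± 0.08 against glutamate nuclei (adjusted p = 0.0119), a call lost without female 1 (0.0853) or male 2 (0.0523) without the library term (0.059) and under DESeq2 (0.0505).

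Among the synapsins, which tether vesicles in the reserve pool, Syn2 was at 205, 264, 177 and 230 CPM in dopamine nuclei against 443 to 501 in GABA and 421 to 537 in glutamate nuclei. The groups did not overlap and the log2 fold changes were -1.05 ± 0.10 (adjusted p = 1.9e-12) and -1.09 ± 0.10. Syn3 was -0.34 ± 0.10 against glutamate nuclei, lost without male 2 (0.0882) and without the library term (0.148), and Syn1 was called against none of the classes. Of the syntaxin-binding proteins, Stxbp5l (tomosyn-2, an inhibitor of SNARE assembly) was at 217, 196, 171 and 193 CPM in dopamine nuclei and 421, 556, 514 and 488 CPM in glutamate nuclei, a log2 fold change of -1.31 ± 0.11 (adjusted p = 6.05e-14). Stxbp6 (amisyn, a syntaxin-binding SNARE-like protein) was at 89.0, 117, 156 and 143 CPM in dopamine against 384, 621, 947 and 844 CPM in Slc26a7-Gad2 nuclei, -2.33 ± 0.17 (1.83e-15) with no overlap.

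**Figure D3:**
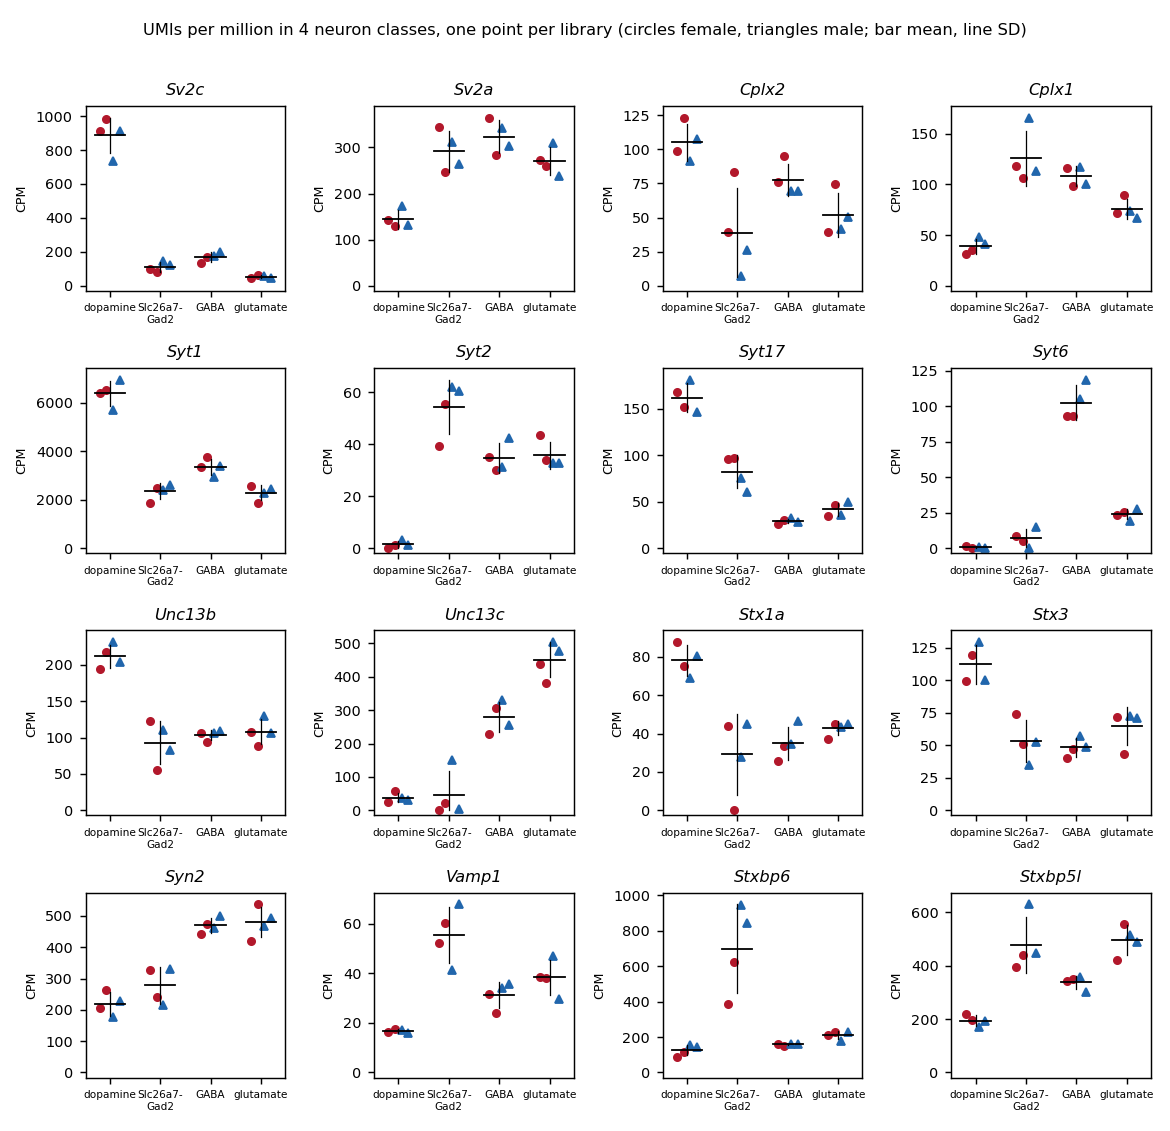
CPM of 16 release genes in the 4 neuron classes, with 1 point per library (circles female, triangles male), a bar at the mean and a line for the SD. The dopamine points of Sv2c lie between 738 and 985 CPM and those of the other classes between 46.5 and 201 CPM, while for Sv2a the dopamine points are the lowest.

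Other genes of vesicle release and recycling were read from a list of 44, of which 43 were tested. Against GABA nuclei 10 were higher and 13 lower in dopamine nuclei, against glutamate nuclei 9 and 11, and against Slc26a7-Gad2 nuclei 11 and 7. The called shares were 53.5%, 46.5% and 41.9% of those tested, beside 29.6%, 25.0% and 14.4% of all genes. The active zone scaffold Erc2 was higher by 2.35 ± 0.07, 2.51 ± 0.07 and 0.78 ± 0.08. Sncb, a presynaptic protein, was lower, by log2 fold changes of -1.29 ± 0.10, -1.04 ± 0.10 and -1.35 ± 0.15. Cadps2, a priming factor of dense-core vesicles, was higher by 1.12 ± 0.12, 3.41 ± 0.13 and 1.41 ± 0.14. Dnm1, the dynamin that pinches off vesicles in endocytosis, was lower, at -0.65 ± 0.09, -0.61 ± 0.09 and -0.67 ± 0.12.

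Isoform use was then expressed as each gene's share of its family's UMIs, which sets aside the level of the family. Because 3′ UMI counts were not corrected for differences between genes, shares are compared across classes and not between genes of a class. Cplx2 took 72.9% ± 5.38 (SD, n = 4) of complexin UMIs in dopamine nuclei, 41.7% ± 5.14 in GABA, 40.0% ± 4.87 in glutamate and 23.0% ± 16.5 in Slc26a7-Gad2 nuclei, the last from 139 UMIs. Sv2c took 85.8% ± 3.28 of SV2 UMIs in dopamine, 34.6% ± 5.63 in GABA, 27.5% ± 5.24 in Slc26a7-Gad2 and 16.6% ± 2.41 in glutamate nuclei. Both shares were higher in dopamine nuclei than in each other neuron class in 4 of 4 libraries.

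Unc13b took 70.9% ± 5.37 of UNC13 UMIs in dopamine nuclei, against 24.7% ± 3.54 in GABA and 17.9% ± 0.949 in glutamate nuclei, where Unc13c took 65.5% ± 4.01 and 74.9% ± 1.56. In Slc26a7-Gad2 nuclei, with 143 UMIs in the family, Unc13b took 56.4% ± 25.4 and Unc13c 17.1% ± 23.5, and the dopamine share of Unc13b was the higher one in 3 of 4 libraries. Rims1 took 65.5% ± 1.57 of RIM UMIs in dopamine nuclei and 47.8% to 53.1% on average in the other neuron classes. Syn3 was 46.4% ± 2.52 of synapsin UMIs in dopamine, 33.7% ± 0.899 in GABA and 58.2% ± 9.60 in Slc26a7-Gad2 nuclei. Over 144 such comparisons of shares between classes, 96 had 1 direction in 4 of 4 libraries. These comparisons are not independent, because the shares of a family add up to the whole and the class pairs reuse the same sums. In a family of 2 genes, each comparison is the mirror of the other gene's. The exact two-sided sign-flip test over 4 libraries cannot go below 1 in 8, and the lowest adjusted value was 0.1875, so no share comparison could pass the threshold.

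**Figure D4:**
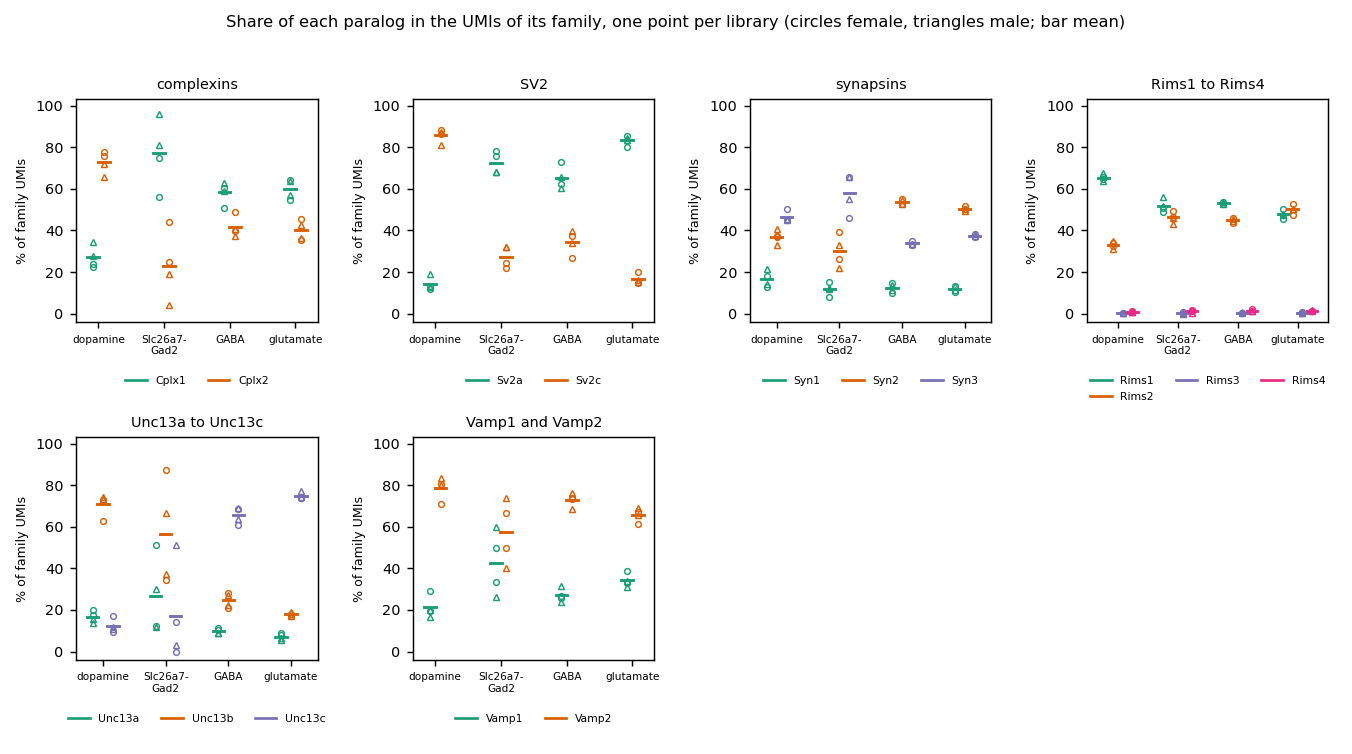
Share of the UMIs of 6 families taken by each isoform, in percent, in the 4 neuron classes, with 1 dot per library and a bar at the mean. Sv2c, Cplx2 and Unc13b take their largest shares in dopamine nuclei (85.8%, 72.9% and 70.9% on average).

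The Slc26a7-Gad2 nuclei carry some dopamine genes and GABA genes, so their release genes were set beside both GABA and glutamate nuclei. Many also carried Slc17a6. Of 116 nuclei meeting the Slc26a7-Gad2 gate, 37 also met the glutamate gate and 2 the GABA gate. Another overlap, with the dopamine gate, held 19 nuclei, which were counted as dopamine nuclei. Stxbp6, Syt17 and Syn3 were higher and Unc13c, Syt5, Syt6 and Syn2 lower than in both. Against GABA nuclei 18 of 58 genes were called, 8 higher and 10 lower (9.57% of all genes, 3.37% higher and 6.19% lower), and against glutamate nuclei 12, 6 higher and 6 lower (8.3% of all genes, 2.78% higher and 5.52% lower). The 2 comparisons share the Slc26a7-Gad2 sums, and the medians were -0.09 and -0.12 beside -0.11 for all genes in both. Leaving out nuclei that met more than 1 gate also left out the male 1 sum, and 10 and 7 genes were then called. The male 1 sum was also missing where nuclei with glial UMIs were left out.

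Stxbp6 stood at 384, 621, 947 and 844 CPM in Slc26a7-Gad2 nuclei, 160, 151, 162 and 161 in GABA and 213, 228, 180 and 230 in glutamate nuclei. Every Slc26a7-Gad2 library was above every other, by 2.08 ± 0.15 (adjusted p = 1.47e-15) and 1.64 ± 0.14 (1.09e-12). After thinning it was seen in 53.8% of Slc26a7-Gad2 nuclei, 19.5% of GABA and 25.6% of glutamate nuclei. Oligodendrocytes, which themselves had Stxbp6 at 450 to 495 CPM, showed it in 53.2%, and microglia in 0.269%. The oligodendrocyte marker list was 377 CPM in Slc26a7-Gad2 and 357 CPM in GABA sums. The precursor list was 104.4 CPM (61.1 to 145) in Slc26a7-Gad2 sums and 14.5 to 44.0 CPM in the other neurons. Nearly all of that came from Vcan (84 of 86 UMIs), with Pdgfra and Gpr17 at 0.

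Syt17 was at 96.1, 97.3, 76.0 and 60.3 CPM in Slc26a7-Gad2 nuclei, 1.45 ± 0.24 above GABA (adjusted p = 8.9e-06) and 0.94 ± 0.22 above glutamate nuclei (0.00265). The second call was lost without female 1 (0.0847). Syt10, a synaptotagmin of a growth factor secretion pathway, was at 34.9, 13.9, 20.7 and 37.7 CPM against 5.85, 8.76, 7.78 and 12.4 CPM in GABA nuclei, higher by 1.65 ± 0.38 (0.00165) and not called without female 1 (0.0802) or where Gad2 had to reach 2 UMIs (0.0515). Syn3 was at 384, 607, 636 and 558 CPM, 0.83 ± 0.12 above GABA (7.37e-07) and 0.53 ± 0.12 above glutamate nuclei (0.0011). Sv2c was 0.98 ± 0.24 above glutamate nuclei (0.00438), lost without male 2 (0.083) or multi-gate nuclei (0.0987). Stx7, an endosomal syntaxin, was higher by 0.73 ± 0.19 than in GABA nuclei (0.00594) and by 0.76 ± 0.19 than in glutamate nuclei. Both Stx7 calls were lost without female 1 (0.11 and 0.062), and without nuclei holding glial UMIs (0.135 and 0.0913), and without multi-gate nuclei (0.0969 and 0.0842).

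On the lower side, Unc13c was at 0, 23.2, 152 and 3.77 CPM in Slc26a7-Gad2 nuclei, 28 UMIs in all, -3.10 ± 0.44 against GABA (adjusted p = 3.59e-07) and -3.80 ± 0.40 against glutamate nuclei (3.7e-10). Male 1, with 12 nuclei, held most of it, and without that library the log2 fold changes of Unc13c were -5.01 and -5.73. Syt5 was -1.50 ± 0.31 against GABA (0.000345) and -1.94 ± 0.29 against glutamate nuclei (1.7e-06), with Slc26a7-Gad2 libraries below all others. Without multi-gate nuclei the first was not called (0.0992). Syt6 had 7 UMIs in Slc26a7-Gad2 nuclei (8.73, 4.63, 0 and 15.1 CPM), -3.68 ± 0.35 against GABA (-4.26 without male 2) and -1.58 ± 0.47 against glutamate nuclei (0.0221), the latter lost without female 1 (0.0968), female 2 (0.13) or male 1 (0.0763) without nuclei holding glial UMIs (0.278) or multi-gate nuclei (0.212) and under DESeq2 (0.0795). Syn2 was at 328, 241, 214 and 332 CPM, -0.76 ± 0.13 against GABA (1.14e-05) and -0.80 ± 0.13 against glutamate nuclei (4.42e-06). Cplx1 was 0.68 ± 0.17 above glutamate nuclei (0.00571), lost without male 1 (0.115) or male 2 (0.0608), and 0.11 and not called without multi-gate nuclei (0.911). Of the 43 other release genes, 1 was higher and 2 lower than in GABA nuclei, Erc2 at 1.57 ± 0.08, Synpr (synaptoporin) at -3.57 ± 0.40 and Rimbp2 at -0.89 ± 0.18. Against glutamate nuclei 2 were higher and 4 lower. The called shares were 6.98% and 14.0% of those tested, beside 9.57% and 8.3% of all genes.

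GABA nuclei had more Syt6, Sv2c, Cplx1 and Cplx2 RNA than glutamate nuclei and less Unc13c and Stxbp5l RNA. Of 58 genes 19 were called, 7 higher and 12 lower in GABA nuclei (12.6% of all genes, 5.89% higher and 6.7% lower), with a median of -0.05 beside 0 for all genes. Syt6 was at 92.7, 92.9, 105 and 119 CPM in GABA and 23.4, 25.3, 19.3 and 27.2 CPM in glutamate nuclei, higher by 2.10 ± 0.11 (adjusted p = 2.93e-20). Sv2c was higher by 1.65 ± 0.12 (1.9e-15) and Cplx1 by 0.52 ± 0.09 (3.86e-05), with no overlap of Sv2c libraries. Cplx2, at 76.4, 94.8, 69.7 and 69.5 against 39.5, 74.6, 41.9 and 50.4 CPM, was higher by 0.61 ± 0.12 (0.000227), overlapped, and was not called without the library term (0.0598). Stxbp5l, at 340, 352, 357 and 303 against 421, 556, 514 and 488 CPM, was lower by a log2 fold change of -0.56 ± 0.09 (5.47e-06) with no overlap. Syt16, at 21.7, 32.8, 26.5 and 21.0 against 35.2, 35.7, 43.5 and 35.3 CPM, was lower by -0.58 ± 0.16 (0.0089) and lost its call without female 1 (0.0602), male 2 (0.0732) or the library term (0.0613).

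Unc13c was lower in GABA than in glutamate nuclei by a log2 fold change of -0.70 ± 0.16 (adjusted p = 0.00101), with no overlap (229 to 329 against 383 to 504 CPM). The call was lost under DESeq2 (0.768) and without the library term (0.124). Syt1 was higher by 0.54 ± 0.12 (0.000736) with no overlap and lost under DESeq2 (0.0658). DESeq2 called 11 genes in this comparison, the fit without the library term 8, and the fit without male 2 called 10. Of the 43 other release genes, 4 were higher and 2 lower, led by Cadps2 at 2.29 ± 0.12. The called share was 14.0% of those tested, near the 12.6% of all genes.

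Setting the 4 neuron classes against the 4 glial classes asked which release genes are neuronal at all. Each class counted equally in the log averages. Of 58 genes 43 were higher and 12 lower in neurons, 55 called (72.1% of all genes, 37.5% higher and 34.6% lower), and the median log2 fold change was 2.04 beside -0.01 for all genes. Higher in neurons were 8 of 8 calcium sensors, 7 of 7 other synaptotagmins, both complexins, 3 of 3 synapsins, both SV2 genes and 7 of 8 active zone and priming genes. Lower were 8 of 12 organelle SNAREs, with 3 higher. Of the 43 other release genes 36 were higher and 3 lower.

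Syt7 averaged 81.5 CPM in neurons and 0.538 CPM in glia, a log2 fold change of 7.30 ± 0.27 (adjusted p = 5.81e-27). Syt1 averaged 3597 and 153 CPM, 5.31 ± 0.09 (1.09e-41), and Rims1 1595 and 292 CPM, 4.78 ± 0.08 (2.41e-41). Most of the glial average of Syt1 and of Rims1 came from precursors (values below), so these genes were not confined to neurons. The CPM values are plain averages over classes and the log2 fold changes are of log averages, so they need not match. Snap25 and Syn1 were higher in neurons by 3.35 ± 0.06 and 2.93 ± 0.11. On the glial side, Stxbp4 (synip, a syntaxin-4 binder) averaged 28.7 CPM in neurons and 157 in glia, -2.40 ± 0.10 (8.26e-27), and Stxbp3 (Munc18c, the partner of Stx4) 72.7 and 212 CPM, -1.46 ± 0.07 (4.54e-23). Stx4 itself was -0.92 ± 0.14, the autophagosomal Stx17 -0.93 ± 0.13, Vamp7 -0.91 ± 0.14 and Snap29 -0.85 ± 0.11.

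Among glia, Rims1, Rims2, Syt1, Snap25 and Syn2 were higher in oligodendrocyte precursors than in oligodendrocytes, and Stxbp3, Stx4 and Stx6 were lower. Of 58 genes 39 were called, 23 higher and 16 lower or 67.2% of those tested beside 61.1% of all genes (29.4% higher and 31.7% lower), with a median of 0.14 beside -0.07. Of the 43 other release genes 24 were higher and 9 lower. By role, 4 active zone and priming genes were higher and 1 lower of 8, 3 calcium sensors higher and 2 lower of 8, 4 other synaptotagmins higher and 2 lower of 7, and 4 plasma membrane SNAREs higher and 1 lower of 6. All 3 synapsins and both complexins tested were higher, none of the 12 organelle SNAREs was higher and 5 were lower, and 2 of the 3 vesicle SNAREs tested were lower.

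Rims1 was at 1083, 1224, 953 and 1096 CPM in precursors and 64.6, 33.5, 54.3 and 58.8 CPM in oligodendrocytes, 4.17 ± 0.12 (adjusted p = 4.81e-33). Rims2 was at 1002, 1003, 998 and 992 CPM against 98.8, 73.0, 76.2 and 88.1 CPM, 3.35 ± 0.10. Syt1 was at 495, 496, 429 and 523 CPM, 2.67 ± 0.15, and Snap25 at 395, 410, 343 and 384 CPM, 2.42 ± 0.10. After thinning Rims1 was seen in 84.4% ± 2.76 of precursors (85.0% unthinned) and 5.89% of oligodendrocytes (6.41% unthinned), Syt1 in 54.2% and 6.05% and Snap25 in 50.9% and 9.37%. The median depths were 2646 and 2256 UMIs, and 337 precursors were left out by thinning. The summed neuron marker list (Snhg11, Meg3, Rbfox3) was 24.0 CPM in precursors, 42.6 in oligodendrocytes and 3337 to 3842 in neurons, and Rbfox3 was at 0 in glia because the gate required it.

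The largest relative differences were in Syt16 and Syt17. Syt17 was at 45.5, 47.0, 49.0 and 49.4 CPM in precursors and 0.885, 0.820, 1.56 and 1.61 in oligodendrocytes, 5.04 ± 0.26 (adjusted p = 1.91e-22). Syt16 was at 49.0, 41.6, 27.6 and 24.7 against 0.708, 0.273, 0.894 and 0.484 CPM, 5.67 ± 0.32 (5.64e-20). Lower in precursors was Stxbp3, at 62.6, 75.8, 76.6 and 100 against 495, 431, 466 and 430 CPM, -2.75 ± 0.11 (7.49e-27). Stx6, a Golgi and endosome syntaxin, was at 46.1 to 56.7 against 107 to 121 CPM, -1.38 ± 0.12, and Stx4, at 16.9 to 22.4 against 40.0 to 51.8 CPM, -1.38 ± 0.18. None of these libraries overlapped.

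Astrocytes differed from oligodendrocytes in 40 of 58 genes, 19 higher and 21 lower or 69.0% of those tested beside 67.6% of all genes (32.4% higher and 35.2% lower), with a median of -0.05 beside -0.07. The median of all genes moved from -0.07 to 0.05 in this comparison, and to 0.07 in the precursor one, with another scaling of the sums, so changes are read relative to it. Rims2 was at 475, 543, 395 and 538 CPM in astrocytes, 2.47 ± 0.09 above oligodendrocytes (adjusted p = 9.2e-28), and took 95.2% ± 1.09 of RIM UMIs there, where Rims1 took 4.24%. Syt12 was at 17.3, 17.6, 42.8 and 17.6 against 0.708, 1.09, 1.12 and 2.74 CPM, 3.72 ± 0.30 (4.72e-15), and 4.40 without male 2. Sv2c was at 32.8, 44.7, 23.1 and 47.4 against 6.90, 6.01, 8.94 and 6.78 CPM, 2.40 ± 0.20 (8.87e-15). Stxbp4 was at 251, 262, 311 and 282 CPM, 2.02 ± 0.10 above oligodendrocytes.

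Lower in astrocytes was Sv2a, at 9.28, 9.99, 9.25 and 9.15 against 108, 75.6, 119 and 88.4 CPM, -3.39 ± 0.15 (adjusted p = 1.41e-25), so Sv2c made up 78.7% ± 5.44 of SV2 UMIs in astrocytes and 6.87% ± 0.600 in oligodendrocytes. Syt14 was at 14.8, 19.98, 25.4 and 16.6 against 177, 169, 143 and 154 CPM, -3.22 ± 0.13 (2.29e-27). Unc13b was at 17.9, 18.2, 11.6 and 21.0 against 109, 92.5, 110 and 97.8 CPM, -2.54 ± 0.13 (1.03e-22), with no overlap in any of these 3 genes. Syt11, which lacks calcium binding, was at 416 to 594 CPM in oligodendrocytes and -1.89 ± 0.08 in astrocytes against them. Of the fast sensors, Syt1 took 37.9% and Syt9 60.7% of Syt1, Syt2 and Syt9 UMIs in astrocytes, where Syt1 was at 16.5 to 46.3 CPM and the neuron list at 6.61 CPM. Of the 43 other release genes 16 were higher and 14 lower, 69.8% of those tested beside 67.6% of all genes.

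Microglia had no comparison of their own and are given as values, with genes named after they were seen. Stx7 was at 229, 216, 192 and 237 CPM there and at 22.3 to 56.6 CPM in the other glia, and was seen after thinning in 36.9% of microglia against 6.03% to 16.8% in the other 7 classes. Unc13d (Munc13-4), a factor of granule secretion in blood cells, was at 27.8, 20.9, 32.7 and 35.7 CPM. Vamp8, which missed the filter, was at 18.5, 25.5, 21.8 and 10.2 CPM. Stxbp6 was at 9.27, 11.6, 3.63 and 2.55 CPM in microglia and at 334 to 495 CPM in the other glial classes. Thinning left out 802 of 974 microglia, so the share rests on the deeper nuclei. The summed astrocyte list was 1612 CPM in microglia and 8591 CPM in astrocytes, and its part in these values was not tested.

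**Figure D5:**
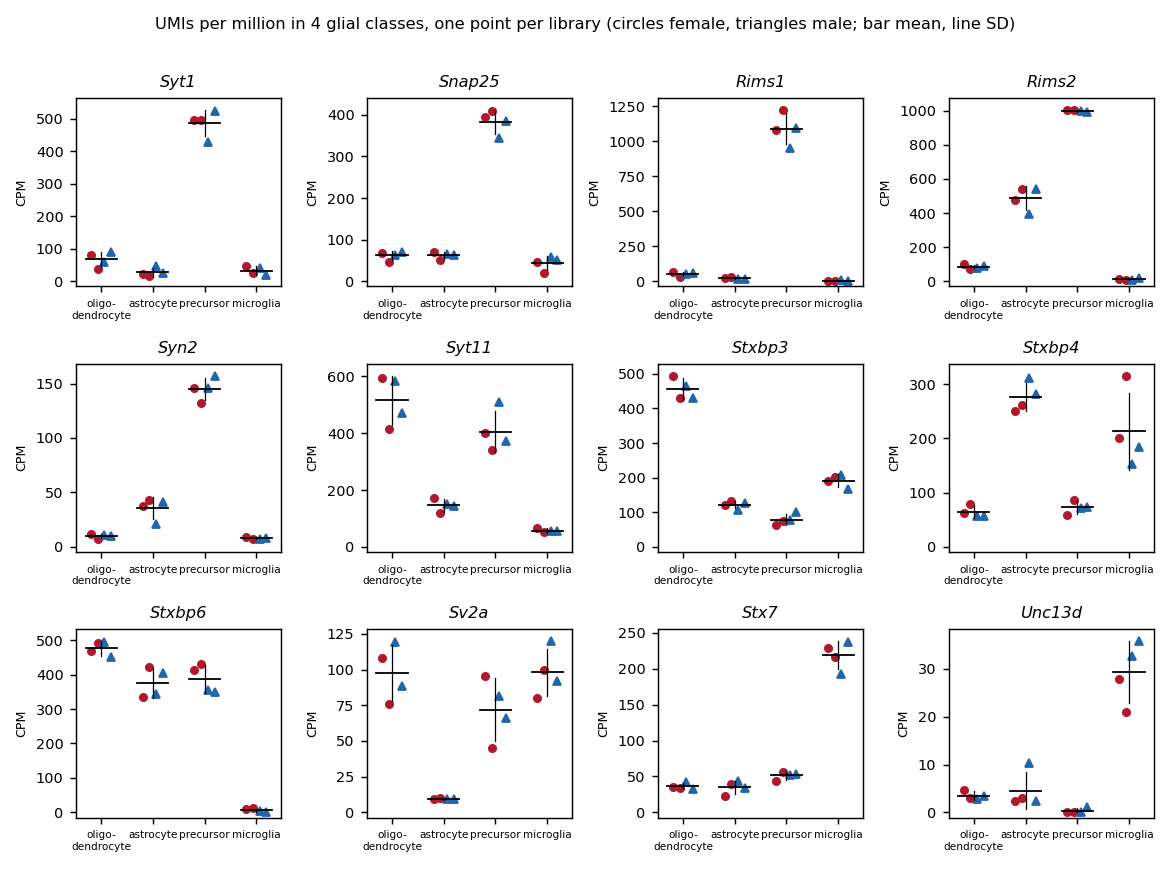
CPM of 12 release genes in the 4 glial classes, with 1 point per library (circles female, triangles male), a bar at the mean and a line for the SD. Precursors lead for Rims1, Rims2, Syt1 and Snap25, oligodendrocytes for Stxbp3 and Syt11, astrocytes for Stxbp4 and microglia for Stx7.

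Females and males were compared within each class. Of 379 gene and class pairs, 0 were called by edgeR (0.0782% of 75451 pairs over all genes), 16 had an unadjusted p under 0.05, and DESeq2 called 0, with 3 under 0.05 unadjusted. The lowest adjusted p was 0.466, for Stxbp6 in Slc26a7-Gad2 nuclei, whose female libraries stood at 384 and 621 CPM and whose male libraries stood at 947 and 844 CPM (-0.83 ± 0.23, female minus male). With replicate number as a term 2 pairs were called, Stxbp6 in Slc26a7-Gad2 nuclei (adjusted p = 0.0244) and Vamp1 in oligodendrocytes (0.0291). Leaving out female 1 left a single female library, so only effect sizes of that fit are given. The genes named from that fit were picked by its own results. In it, Syt5, Vamp1, Syt1, Unc13c and Rims1 were lower in female 2 than in males in oligodendrocytes (log2 fold changes of -2.33, -1.27, -0.86, -3.31 and -0.68). Syn3 was higher in precursors (0.72). With 2 libraries per sex an exact permutation test of a single gene could not reach 0.05, and the sex effect could not be separated from that of the pools of animals.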

How the data were processed

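Nuclei of the rat VTA were sequenced as 4 libraries (10x Genomics 3′ v3). The values deposited by the authors are unscaled whole UMI counts for each gene in each barcode, per the file headers, which name software version 3.0.2. The authors used Cell Ranger and rn6, per the submitters' processing notes. The aligner's settings, the annotation and the counting of intronic reads were not given in the sources used here. Total UMIs were 21513908, 21853615, 19714338 and 25824289 in female 1, female 2, male 1 and male 2, with 5873, 5150, 3628 and 6955 barcodes, each of at least 501 UMIs.

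Barcodes with under 200 genes or over 5% mitochondrial UMIs (6) and the highest doublet scores, in a share that grew with the library's barcodes (980, 4.54%; Scrublet in scanpy 1.11.5, whose own threshold marked 477) were removed. Glial nuclei needed at least 3 UMIs from at least 2 markers of a list, and at least 2 times those of any other glial list. They also had to lack any UMI of Rbfox3, Gad1, Gad2, Slc32a1, Slc17a6, Th and Slc6a3. The UMIs of each class were summed in each library and fitted in 1 model over 8 classes with library as a block (edgeR 4.0.16, TMM, its low-count filter, R 4.3.3). Gate and list genes were left out, and p-values were adjusted over 11887 genes. SE was taken as the absolute log2 change divided by the root of the F statistic. CPM is relative to all UMIs of the sum. Classes of one library deviated together (median correlation 0.134 over 112 pairs, -0.0284 over 336 pairs of different libraries). Sex was tested without a block, because replicate numbers of females and males share nothing in the labels (correlations of 0.04 to 0.26). Family shares were compared by exact sign-flip tests (scipy 1.17.1). Intervals and floors cover counting error only. The scripts were tested on simulated data.

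Named in each comparison were the 6 largest called increases and decreases with at least 20 CPM on one side and 1 direction in 4 of 4 libraries, plus 20 genes nameable throughout. Exceptions are stated. Some genes are counted but not reported here by name. The genes, classes and lists were chosen with earlier results of these data known. Promoters came from RefSeq (GRCr8). Alternatives were DESeq2 1.42.0, its size factors, no filter, doublets kept, no library term, leaving out each library, multi-gate nuclei or nuclei with glial UMIs left out, a stricter Slc26a7-Gad2 gate and nuclei of at least 2000 UMIs. The test of sex by class was added after the data had been seen.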

Additional observations from a re-analysis of the deposited data

Results flagged for a closer look

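In 5 of 67 groups of 4 libraries examined, 1 library stood apart from the other 3 by more than a set limit, which chance alone passes in about 1 in 20 groups. Unc13c in Slc26a7-Gad2 nuclei was at 152 CPM in male 1, which held 12 such nuclei, against 0, 23.2 and 3.77 CPM in the other libraries. Syt2 in glutamate nuclei was at 43.5 CPM in female 1 against 32.6 to 33.8 CPM. Syt16 in glutamate nuclei was at 43.5 CPM in male 1 against 35.2 to 35.7 CPM. Syt12 in astrocytes was at 42.8 CPM in male 1 against 17.3 to 17.6 CPM. Sv2a in astrocytes was at 9.99 CPM in female 2 against 9.15 to 9.28 CPM, a small difference in size. No cause was tested for any of these.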

How the results depend on the processing

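No comparison as a whole and no call of a gene named by the rule reversed under the alternatives run. Some log2 fold changes that were not called did change sign. In precursors against oligodendrocytes, Sv2c went from 0.07 to -0.89 without female 2, and Unc13c from -0.84 to 0.08 without male 2. Outside the rule, Stx12 (named here after its values were seen) went from -0.18 in neurons against glia (adjusted p = 0.0289) to 0.10 (0.365) in nuclei of at least 2000 UMIs. Of 360 recomputed counts, shares and comparisons as a whole, 349 stayed within the limits set for a change and 11 moved, and among single genes 128 calls were lost and 8 gained. Slc26a7-Gad2 against GABA nuclei gave 10 calls without nuclei meeting more than 1 gate, and against glutamate nuclei 7, in a fit that also lacked the male 1 sum of 5 nuclei. GABA against glutamate nuclei gave 11 calls with DESeq2 and 8 with no replicate block. The sex comparison gave 2 calls with no filter on low counts (Vamp1 and Unc13c in oligodendrocytes) and 2 with the replicate block. Without each library in turn the calls ranged from 26 to 29 for dopamine against GABA, 24 to 28 against glutamate and 20 to 23 against Slc26a7-Gad2 nuclei. They ranged from 11 to 14 for Slc26a7-Gad2 against GABA, 8 to 12 against glutamate, 10 to 18 for GABA against glutamate, 52 to 54 for neurons against glia, 37 to 40 for astrocytes, 35 to 37 for precursors and 0 to 6 for sex. The sex calls were 6 without female 1, 1 without female 2, 1 without male 2 and 0 without male 1. The female 2 call was Stxbp6 and the male 2 call Unc13c, both in Slc26a7-Gad2 nuclei. The cause was not tested. Depth limits the Slc26a7-Gad2 sums most (144707 to 265451 UMIs, against 741497 to 942935 for dopamine).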

Other observations

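Whether the sex difference of a gene differed between neuron classes was tested by an interaction of sex and class, added after the data had been seen. Of 342 gene and contrast pairs, 0 were called by edgeR and 25 had an unadjusted p under 0.05. DESeq2 was not run for it. The lowest adjusted p was 0.244, in Slc26a7-Gad2 against glutamate nuclei.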
